A study of Rattus norvegicus with 20 samples.

Results

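Chromatin and DNA methylation regulators were followed in rat cortical neurons captured after stroke. The group was a list of 45 named genes, and probes were taken by annotation, whatever their values. Of 82 probes, 61 carried the gene's name and 17 its name in their description. A further 3 (2 of Hdac9 and 1 of Smarce1) were matched through a synonym and 1, which stands for Smarce1, through its RefSeq accession. A probe described as similar to Hdac1 was not used. Of the 45 genes, 44 had a probe and 44 passed the brightness filter, among 33087 genes tested in all. Suz12, a Polycomb subunit, matched no probe, so its expression was not analysed here and only its promoter enters below. The list held 4 class I and 6 class II or IV histone deacetylases, 2 sirtuins, 3 acetyltransferases and 3 DNA methyltransferases. Of methyl-CpG binding domain genes the list held 3, and of Polycomb genes 4. It also held 2 members of the MLL family, 8 subunits of the SWI/SNF remodelling complex, 3 ISWI or CHD remodellers, 3 HP1 proteins and 4 corepressors.

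Histone acetyltransferases add acetyl groups that open chromatin, and deacetylases remove them, often within corepressor complexes such as those built on Sin3a, Ncor1 and Rcor1. DNA methyltransferases write methyl marks on CpG dinucleotides, which methyl-CpG binding proteins read, while Polycomb and MLL enzymes set opposing histone methyl marks. Remodellers of the SWI/SNF, ISWI and CHD families slide or evict nucleosomes, and in neurons these systems are known for their part in growth programmes and in keeping neuronal genes on.

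The animals were 10 rats, all 2 months old and all subjected to stroke, in separate cohorts of 5 at day 7 and 5 at day 21. A first fluorescent cholera toxin B tracer, carried back to the cell body, was placed in cortex bordering the infarct, and a second colour went into that site after 7 or 21 days. Laser capture followed 7 days after the second tracer, taking about 300 neurons of each type, and their RNA went through 2 rounds of T7 amplification. Sprouting and non-sprouting neurons of an animal shared each of its 2 arrays, with the dyes exchanged between the arrays. No uninjured animals are among the samples used here and the labels used here name no strain or sex. Because a captured sample is a pool, fewer cells expressing a gene and less RNA per cell cannot be told apart.

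Values are log2 ratios of sprouting over non-sprouting neurons per animal, the mean of its 2 arrays, so a value above 0 means more signal in sprouting neurons. The arrays differed in reliability. In 9 animals, 28 to 35 of the members measured had the same sign on both arrays, with correlations across members of 0.449 to 0.938. In day 21 replicate 4, only 13 of 44 members did, and the correlation across members was -0.506 (-0.358 over all genes). The main counts, and the day 21 and both-day means of the members with the smallest p, are therefore also given without that animal. The share of probes above background in a channel ran from 40.5% to 94.6%, and the median Cy5 signal from 98.75 to 344.7. Of the markers of neurons, 12 of 14 were measured and 9 were above background in all 40 channels. So were 8 of 12 astrocyte, 6 of 12 oligodendrocyte, 8 of 12 microglial and 8 of 10 interneuron markers, and no measured marker of any list was below background throughout.

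**Figure D1:**
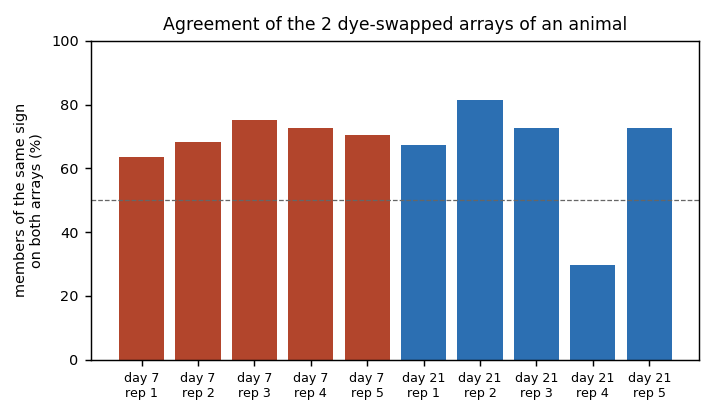
Share of members (%) whose log2 ratio had the same sign on both dye-swapped arrays of an animal, with 1 bar per animal and a dashed line at equal numbers. Day 21 replicate 4 had 13 of 44, below every other animal.

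The sequences upstream of the start sites were examined because several members read or write methyl marks on CpG dinucleotides. RefSeq promoter sequences of build GRCr8 matched 40 of the 45 genes. In the 250 bases before the start, the median ratio of observed to expected CpG was 0.84 for the members and 0.38 over 33469 promoters. It exceeded 0.6 in 35 members (87.5%) and in 33.0% of all promoters. The GC box CCGCCC, on either strand, stood in 31 members (77.5%) and in 30.5% of all promoters. The TATA box letters TATAAA and the cAMP response element TGACGTCA were in 0 of the 40, against 12.9% and 1.59% of all promoters. The Ets letters CCGGAAGT were in 1 member, Rest (2.5%, against 3.1%). These are matches of letters only. The 4 sequences below show Ep300, the member with the smallest p for its ratio, Cbx1 and Hdac4, the members with the highest mean ratio at day 21 and day 7, and Hdac8, whose observed-to-expected CpG of 0.21 was the lowest of the members. CG dinucleotides are in capitals, and each reads 5′ to 3′ on the gene's strand. They lie at chr7:114987607-114987856 (plus strand), chr10:82266512-82266761 (plus), chr9:100197638-100197887 (minus) and chrX:71632866-71633115 (minus).
Ep300: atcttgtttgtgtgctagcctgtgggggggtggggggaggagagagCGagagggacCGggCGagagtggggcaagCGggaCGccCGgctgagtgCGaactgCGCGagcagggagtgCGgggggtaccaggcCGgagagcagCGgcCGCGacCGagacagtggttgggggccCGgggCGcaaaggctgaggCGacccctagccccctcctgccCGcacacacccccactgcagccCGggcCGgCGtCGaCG
Cbx1: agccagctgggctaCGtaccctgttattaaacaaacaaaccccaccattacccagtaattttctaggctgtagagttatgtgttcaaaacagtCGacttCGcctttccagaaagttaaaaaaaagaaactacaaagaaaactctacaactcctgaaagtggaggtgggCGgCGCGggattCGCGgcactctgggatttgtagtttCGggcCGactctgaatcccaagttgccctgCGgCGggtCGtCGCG
Hdac4: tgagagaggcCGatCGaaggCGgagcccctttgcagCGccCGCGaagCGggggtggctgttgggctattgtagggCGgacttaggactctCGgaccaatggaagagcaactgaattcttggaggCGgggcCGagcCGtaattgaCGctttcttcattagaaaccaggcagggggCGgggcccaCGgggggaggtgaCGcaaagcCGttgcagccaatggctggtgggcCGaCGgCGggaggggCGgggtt
Hdac8: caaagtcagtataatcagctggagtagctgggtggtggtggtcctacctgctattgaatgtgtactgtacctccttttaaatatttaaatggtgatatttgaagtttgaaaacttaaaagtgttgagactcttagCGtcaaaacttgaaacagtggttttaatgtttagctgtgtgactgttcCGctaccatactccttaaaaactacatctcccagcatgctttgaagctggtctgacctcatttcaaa
Ep300 had 24 CG dinucleotides in this stretch, Hdac4 had 21, Cbx1 had 15 and Hdac8 had 2. Hdac9 also had 2.

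No member differed between sprouting and non-sprouting neurons past the adjusted threshold. At day 7, 27 of 44 members (61.4%, beside 46.5% of all genes) had a mean ratio above 0. Their median was 0.05 (log2), beside -0.01 over all genes. The limma fit held both cohorts with a mean per day, so a day's p and interval drew on the spread of both. In that fit 1 gene, no member of the list, passed an adjusted p of 0.05 at day 7 (0.00302%). At an unadjusted p under 0.05 there were 8 members (18.2%), 7 higher and 1 lower in sprouting neurons, beside 9.48% of all genes. With each day fitted separately the day 7 count was 7 (15.9%, beside 6.99% of all genes). At day 21, 23 of 44 members (52.3%, beside 48.9% of all genes) were above 0, and the median was 0.01. No member reached an unadjusted p of 0.05 at day 21, beside 5.8% of all genes, and 0 genes (0%) passed the adjusted threshold. Without replicate 4 of day 21, 24 members had a day 21 mean above 0 with a median of 0.02, 5 members (11.4%, beside 8.14% of all genes) reached the unadjusted threshold at day 7, and 1 (2.27%, beside 6.55%) did at day 21. For the mean of both days, 9 members reached it, 8 higher and 1 lower (20.5%, beside 11% of all genes), with a smallest adjusted p of 0.399. Without that animal the count for the mean was again 9, beside 10.5% of all genes. The median SD of a member's ratio was 0.163 at day 7 and 0.13 at day 21, beside 0.116 and 0.102 over all genes. Higher in all 5 animals were 5 members at day 7 (3.54% of all genes) and 1 at day 21 (4.23%), and lower in all 5 were 0 (5.1%) and 1 (4.09%). All 44 members were measured in every animal of day 7, and 42 in every animal of day 21. The brightest probe stands for each gene. Of 23 members with more than 1 passing probe, 13 had probes of both signs at day 7 and 12 at day 21.

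**Figure D2:**
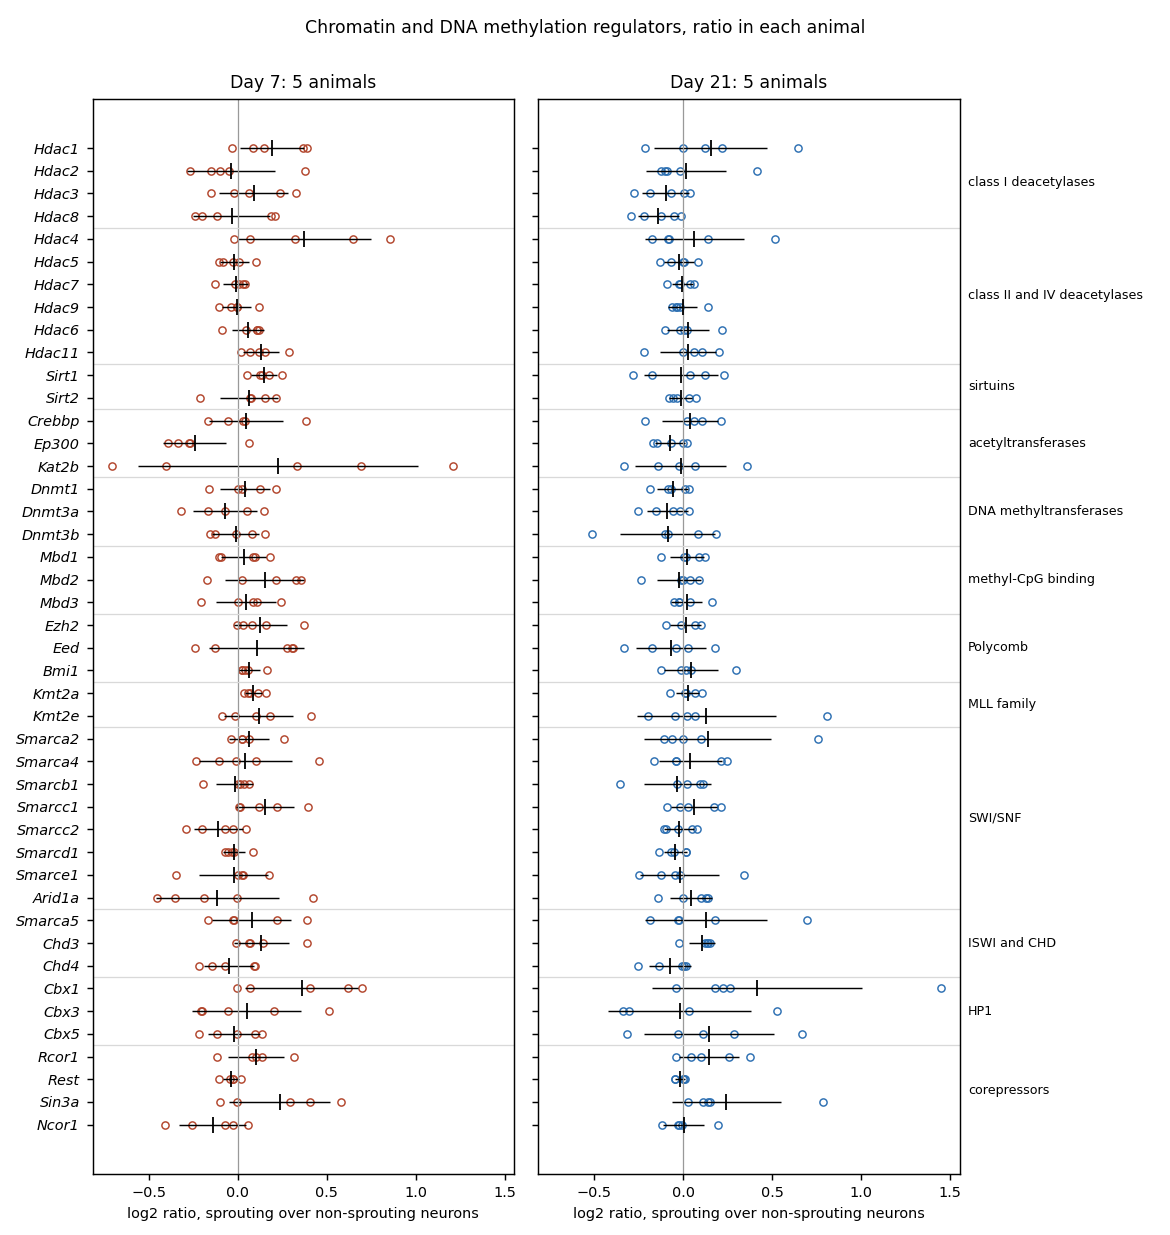
Log2 ratio of sprouting over non-sprouting neurons for the 44 measured members, ordered by role, at day 7 (left) and day 21 (right). Circles are animals, ticks means and lines the SD; most members straddle 0, and Kat2b at day 7 and Cbx1 at day 21 have the widest spread.

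Among the acetyltransferases, Ep300 stood lowest. Ep300 encodes the p300 coactivator, a close relative of the CREB-binding protein. Its day 7 ratios were 0.06, -0.27, -0.27, -0.33 and -0.39 in replicates 1 to 5, so 4 of 5 animals were lower in sprouting neurons and replicate 1 was not. At day 21 they were -0.15, -0.17, 0.02, 0.00 and -0.07, so 1 of 5 animals was above 0. The day 7 mean was -0.24 ± 0.18 (SD, n = 5), with a limma unadjusted p of 0.00208 and an adjusted p of 0.385. That p used the spread of both cohorts, not the day 7 SD alone. The mean of both days was -0.16 (95% interval -0.25 to -0.07; adjusted p 0.399 in limma; exact sign-flip permutation p 0.0176 over 10 animals, unadjusted). This rests on the brightest of its 2 probes: the other gave -0.01 at day 7 and 0.00 at day 21. Without day 21 replicate 4 the mean of both days of the brightest probe was -0.17 (unadjusted p 0.00538 in limma).

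Crebbp, the CREB-binding protein itself, gave 0.38, -0.05, -0.17, 0.03 and 0.04 at day 7 and 0.11, 0.21, 0.06, 0.02 and -0.22 at day 21. Its signs were mixed at both times. Kat2b, the acetyltransferase PCAF, ranged from -0.71 to 1.21 at day 7, the widest spread of any member (SD 0.79), and from -0.34 to 0.36 at day 21.

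Of the class I deacetylases, the catalytic core of most corepressor complexes, Hdac1 was higher in sprouting neurons in 7 of 10 animals. Its ratios were -0.03, 0.15, 0.09, 0.37 and 0.39 at day 7 and 0.12, 0.22, 0.65, 0.00 and -0.22 at day 21. The mean of both days was 0.17 (95% interval 0.01 to 0.34, limma adjusted p 0.443, exact sign-flip permutation p 0.0547, unadjusted). It was 0.19 without day 21 replicate 4. Without day 21 replicate 3, the highest animal, it was 0.11 and its unadjusted call was lost (limma unadjusted p 0.0781). Hdac2, its close paralogue, gave 0.38, -0.05, -0.15, -0.10 and -0.27 at day 7 and -0.09, 0.41, -0.13, -0.02 and -0.11 at day 21. In each cohort a single animal lay above 0. Its other probe gave 0.12 at day 7 and 0.07 at day 21. Hdac3, the deacetylase of the Ncor1 complex, gave 0.24, 0.07, 0.33, -0.02 and -0.15 at day 7 and -0.19, -0.28, -0.07, 0.04 and 0.00 at day 21. Its ratio was 0.19 lower at day 21 than at day 7 (unadjusted p 0.0794, adjusted p 0.943, limma), and the cohorts overlapped. Hdac8 was below 0 in all 5 animals of day 21, at -0.05, -0.22, -0.12, -0.02 and -0.30, and spread from -0.24 to 0.21 at day 7. Its day 21 mean was -0.14, and -0.17 without replicate 4, while its other probe gave 0.05 at day 7 and -0.02 at day 21.

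Some class II deacetylases, Hdac4 among them, move between nucleus and cytoplasm with neuronal activity. Hdac4 had the highest day 7 mean of the list, 0.37 ± 0.37 (SD, n = 5; limma adjusted p 0.476), from ratios of 0.86, 0.07, -0.02, 0.32 and 0.65. At day 21 they were 0.14, -0.18, 0.52, -0.09 and -0.08, overlapping those of day 7. The 3 probes of Hdac4 did not behave alike at day 7: the brightest gave 0.37 (unadjusted p 0.0173 in the probe fit by limma) and the others -0.03 and -0.03 (0.605 and 0.371). Over the 3 probes the mean was 0.11. Without day 7 replicate 1 the brightest probe gave 0.25 (unadjusted p 0.0769) and without replicate 5 it gave 0.31 (0.0659), so the unadjusted call rested on each of them. Hdac9, another class II enzyme, lay between -0.10 and 0.12 at day 7 and between -0.06 and 0.14 at day 21. Hdac5, Hdac6 and Hdac7 had means between -0.02 and 0.06 on both days. Hdac11, the class IV enzyme, was higher in all 5 animals at day 7 (0.12, 0.07, 0.29, 0.02 and 0.15). Sirt1, a nuclear NAD-dependent deacetylase, was too (0.13, 0.17, 0.25, 0.13 and 0.05), but at day 21 it gave 0.23, 0.12, -0.17, 0.04 and -0.28. The Sirt1 probe was above background in 29 of 40 channels. At day 7 these were 10 of 10 sprouting and 7 of 10 non-sprouting ones. Sirt2 had means of 0.06 and -0.01.

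No DNA methyltransferase reached an unadjusted p of 0.05 on either day. Dnmt1, which copies methylation after replication, gave 0.22, -0.16, 0.12, 0.03 and 0.00 at day 7 and 0.01, -0.09, -0.19, -0.07 and 0.03 at day 21. Its mean over both days was -0.01 (95% interval -0.09 to 0.07). Dnmt3a, a de novo enzyme, gave 0.05, -0.07, 0.15, -0.32 and -0.17 at day 7 and -0.25, -0.15, 0.03, -0.06 and -0.02 at day 21. Its mean was -0.08 (95% interval -0.18 to 0.02), with 7 of 10 animals below 0. Dnmt3b, the other de novo enzyme, had means of -0.01 and -0.09. Of the methyl-CpG binding domain genes, Mbd2 had a day 7 mean of 0.15 ± 0.22 and a day 21 mean of -0.03 ± 0.13 (SD, n = 5 each). Mbd1 and Mbd3 had means of 0.03 and 0.05 at day 7 and 0.02 each at day 21.

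Among the Polycomb genes, Ezh2, the methyltransferase of the repressive complex, gave 0.03, 0.16, 0.08, 0.00 and 0.37 at day 7 (limma unadjusted p 0.0418, adjusted p 0.518). The call rests on 1 of its 2 passing probes, since the other gave 0.03 at day 7 (unadjusted p 0.75 in the probe fit). At day 21 it was measured in 4 animals, at 0.10, -0.10, -0.01 and 0.07. Bmi1, of the other Polycomb complex, was higher in all 5 animals at day 7 at 0.03 to 0.17 and mixed at day 21 (-0.12 to 0.29). The Bmi1 probe was dim, above background in 27 of 40 channels. Eed, a partner of Ezh2, had means of 0.11 and -0.07. Kmt2a, the MLL1 methyltransferase, was higher in all 5 animals at day 7 by small amounts: 0.11, 0.07, 0.06, 0.04 and 0.16. Day 21 gave 0.10, 0.01, 0.06, 0.02 and -0.07, so 9 of 10 animals were above 0. Its day 7 limma adjusted p was 0.477, and its probe was above background in 25 of 40 channels. Kmt2e had means of 0.12 and 0.13.

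In the SWI/SNF complex, Smarca4, the Brg1 ATPase, gave -0.10, 0.10, 0.46, -0.01 and -0.23 at day 7 and -0.04, 0.24, -0.17, -0.04 and 0.21 at day 21, with animals on both sides of 0. Its other probe, above background in all 40 channels, gave 0.19 at day 7, 0.15 at day 21 and 0.17 over both days (unadjusted p 0.0194 in the probe fit). Smarcc1, a core scaffold subunit, was higher in all 5 animals at day 7, from 0.01 to 0.40 (mean 0.15, limma adjusted p 0.507). The Smarcc1 probe was above background in 32 of 40 channels. At day 7 these were 9 of 10 sprouting and 6 of 10 non-sprouting ones. Smarcc2, a relative of Smarcc1, had a mean of -0.11 at day 7 and -0.02 at day 21, but its other passing probe gave 0.13 and 0.03. The remaining 5 subunits, Smarca2, Smarcb1, Smarcd1, Smarce1 and Arid1a, had means between -0.11 and 0.14 over both days. Smarce1 had 3 probes, 1 of which gave 0.12 at day 7 (unadjusted p 0.0214 in the probe fit) and the others -0.02 and -0.05.

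Of the CHD remodellers, Chd3, a NuRD ATPase, was above 0 in 8 of 10 animals. Its ratios were 0.07, -0.01, 0.14, 0.07 and 0.39 at day 7 and 0.12, -0.03, 0.14, 0.15 and 0.13 at day 21. The day 7 replicate 5 value stood above the others, and without it the day 7 mean was 0.07 in place of 0.13. The mean of both days was 0.12 (95% interval 0.04 to 0.20; limma adjusted p 0.405; exact sign-flip permutation p 0.00781, unadjusted). Without day 21 replicate 4 it was 0.11, and the day 21 mean was 0.09 in place of 0.10. Chd4, its paralogue, had means of -0.05 and -0.08 from its brightest probe, but 1 of its 3 probes gave 0.22 at day 7 (unadjusted p 0.0259 in the probe fit) and 0.16 over both days. Smarca5, the ISWI ATPase, had means of 0.08 and 0.13.

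HP1 proteins bind methylated histone H3 in heterochromatin, and Cbx1, HP1 beta, had the largest mean of the list. Its ratios were 0.00, 0.07, 0.70, 0.41 and 0.62 at day 7 and 0.22, 0.18, 1.45, -0.04 and 0.26 at day 21. Thus 8 of 10 animals were above 0, and day 21 replicate 3 stood far above the rest. The mean of both days was 0.39 (1.31-fold; 95% interval 0.09 to 0.68; limma adjusted p 0.409; exact sign-flip permutation p 0.00781, unadjusted). Without day 21 replicate 4 the day 21 mean was 0.53 (limma unadjusted p 0.0308) in place of 0.41, and without replicate 3 it was 0.16. The mean of both days was 0.26 without replicate 3 and 0.44 without replicate 4. Cbx5, HP1 alpha, gave 0.09, -0.12, -0.22, -0.01 and 0.14 at day 7 and 0.11, 0.67, 0.29, -0.03 and -0.32 at day 21. Cbx3, HP1 gamma, ranged from -0.20 to 0.51 at day 7.

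Of the corepressors, Sin3a, the scaffold of an Hdac1 and Hdac2 complex, was above 0 in all 5 animals of day 21, at 0.14, 0.15, 0.79, 0.03 and 0.11. Day 7 gave -0.10, 0.30, -0.01, 0.41 and 0.58, and replicate 3 of day 21 was again the highest of its cohort. The mean of both days was 0.24 (95% interval 0.05 to 0.43; limma adjusted p 0.413), and the day 21 mean was 0.11 without replicate 3 in place of 0.24. Without replicate 4 the day 21 mean was 0.30 and the mean of both days 0.27. Rcor1, the CoREST scaffold, gave 0.10, 0.32, -0.12, 0.08 and 0.14 at day 7 and 0.10, -0.04, 0.25, 0.04 and 0.38 at day 21, with 8 of 10 animals above 0 (mean 0.12, adjusted p 0.419). Its day 21 mean was 0.15, and 0.17 without replicate 4. Rest, the repressor of neuronal genes outside neurons, lay between -0.10 and 0.02 at day 7 and between -0.05 and 0.01 at day 21. Its probe was above background in 17 of 40 channels, so these ratios near 0 come from dim signal. Ncor1 had means of -0.14 and 0.00 from its brightest probe. Its 3 other passing probes gave 0.11, 0.10 and 0.03 at day 7, so its direction at day 7 depended on the probe.

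**Figure D3:**
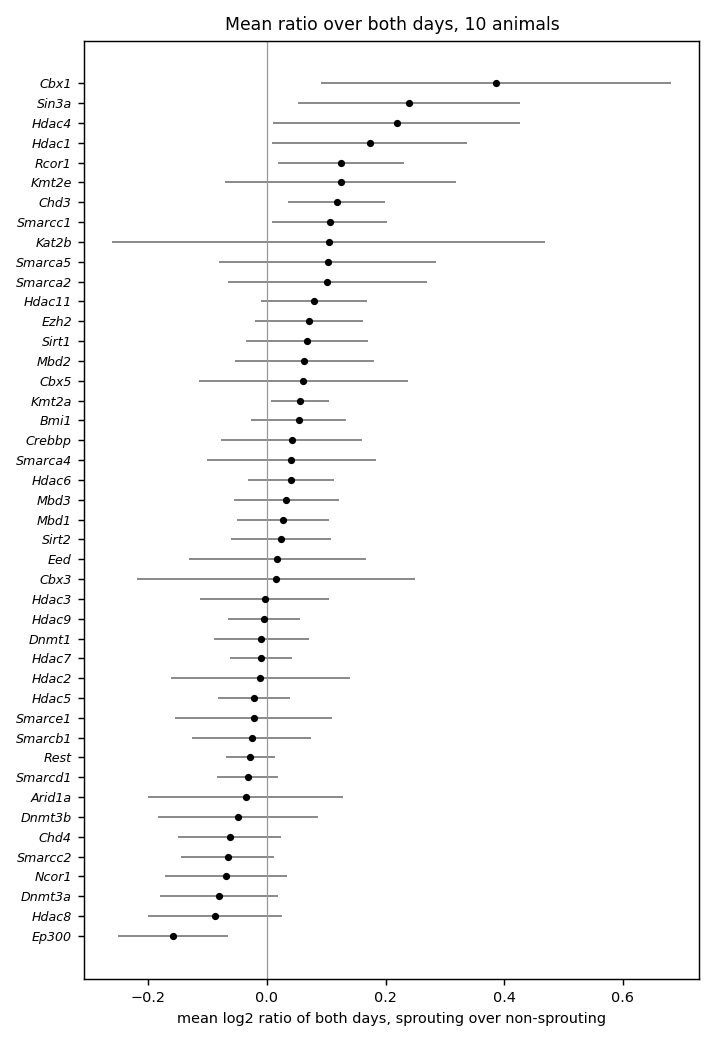
Mean log2 ratio of sprouting over non-sprouting neurons over both days for each of 44 members, sorted, with the 95% interval of the limma fit (unadjusted). The interval lies above 0 for 8 members, highest for Cbx1 at 0.39, and below 0 for Ep300 at -0.16.

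Markers of other cells moved between animals beside these ratios. The median ratio of the 12 oligodendrocyte markers ran from -0.27 to 0.86 at day 7 and from -0.33 to 0.45 at day 21. That of the 12 astrocyte markers ran from -0.13 to 0.40 and from -0.25 to 0.00, and that of the 12 microglial markers from -0.28 to 0.41 and from -0.15 to 0.02. The neuronal markers lay between -0.09 and 0.13 and between -0.06 and 0.05. Their part in the members' ratios was not tested.

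No member reached an unadjusted p under 0.05 for a difference of the ratio between the days, while 4.05% of all genes did. In that comparison 16 of 44 members (36.4%, beside 52.4% of all genes) were higher at day 21, with a median of -0.02 beside 0.00 over all genes. No gene (0%) passed the adjusted threshold, and the members with the smallest p were Ep300, Hdac3, Sirt1 and Hdac4 (limma adjusted p 0.943 each). For Ep300 the ratio was 0.17 higher at day 21 (95% interval -0.02 to 0.35). It was 0.24 higher without day 7 replicate 1 (unadjusted p 0.00149 in limma) and 0.15 higher without day 21 replicate 4 (0.139). Without the latter animal Hdac3, Sirt1 and Hdac4 differed by -0.22, -0.17 and -0.28. The arrays were scanned on different days, and an animal was placed by its first array. By that rule 3 scan days held both cohorts, each with 1 animal of day 7 and 1 or 2 of day 21. Values within them therefore set a single day 7 animal against 1 or 2 of day 21. In the first of the 3, the day 7 animal (replicate 3) had its 2 arrays scanned on different days, so that value is not wholly within a scan day. That scan day also held day 21 replicate 4, whose arrays disagreed with each other. Day 7 replicates 1 and 2 were scanned on days without a day 21 animal. In order, the 3 scan days gave 0.20, 0.32 and 0.26 for Ep300 and 0.05, -0.48 and -0.41 for Hdac4.

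Levels of each cell type were then compared between the cohorts. In sprouting neurons, 5 members reached an unadjusted p under 0.05, 1 higher and 4 lower at day 21 (11.4%, beside 8.82% of all genes). In non-sprouting neurons the count was again 5, with 1 higher and 4 lower (11.4%, beside 8.96%). Neither comparison had a gene past the adjusted threshold (0%). Kat2b, Crebbp, Hdac8 and Rest were among the 5 in both, but the cell types share arrays, so the comparisons are not independent. Levels that did not overlap between the cohorts were found for 0 members in sprouting neurons (1.51% of all genes) and for 1 in non-sprouting neurons (1.47%), which was Crebbp. Of the 23 members with more than 1 passing probe, 11 had level changes of both signs in sprouting and 17 in non-sprouting neurons. Without day 21 replicate 4 the counts at an unadjusted p under 0.05 were 5 and 6 (beside 10.4% and 9.27% of all genes).

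Kat2b levels (log2 signal of its brightest probe) in sprouting neurons were 11.09, 11.24, 10.44, 11.57 and 11.88 at day 7 and 10.75, 10.33, 10.29, 10.30 and 10.65 at day 21. Day 7 replicate 3 lay within the day 21 range. In non-sprouting neurons they were 11.49, 10.91, 11.15, 10.87 and 10.67, then 10.40, 10.66, 10.31, 10.23 and 10.79. The level was lower at day 21 by 1.72-fold and 1.45-fold (limma adjusted p 0.481 and 0.511). Its other probes were divided: the 4 probes gave -0.78, 0.54, -0.62 and 0.24 in sprouting and -0.54, 0.66, -0.28 and 0.32 in non-sprouting neurons. In the same order they were above background in 40, 30, 38 and 16 of 40 channels. Those of the opposite sign were thus above background less often, and the last passed the filter only through sprouting neurons of day 7. With all passing probes averaged, the change was -0.15 in sprouting and 0.04 in non-sprouting neurons. Within the 3 scan days the brightest probe gave 0.085, -1.57 and -0.92 in sprouting neurons, so 1 of 3 had the other sign. That value came from the scan day whose day 7 animal, replicate 3, had its arrays scanned on different days. The same scan day held day 21 replicate 4, whose arrays disagreed with each other.

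Crebbp in sprouting neurons was at 10.28, 10.18, 9.64, 10.29 and 10.11, then 9.31, 9.81, 9.83, 9.74 and 9.57. In non-sprouting neurons it was at 9.90, 10.23, 9.81, 10.26 and 10.07, then 9.20, 9.60, 9.77, 9.72 and 9.79. The difference was -0.45 in sprouting neurons (limma adjusted p 0.518) and -0.44 in non-sprouting neurons (limma adjusted p 0.516). The same limit applied, since 1 of its other probes gave 0.63 and 0.60 and the other -0.01 and -0.01, and the mean of the probes was 0.06 and 0.05. For Crebbp the within-scan-day differences were -0.12, -0.29 and -0.72 in sprouting neurons.

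The probe that stands for Rest was above background on few arrays: on 3 of 10 at day 7 and 4 of 10 at day 21 in sprouting neurons, and on 6 and 4 of 10 in non-sprouting neurons. It passed the filter only through non-sprouting neurons of day 7, so the levels below are mostly of signal not above background. Rest in sprouting neurons was at 6.44, 6.40, 6.32, 7.16 and 6.76 at day 7 and 8.01, 7.11, 6.57, 7.06 and 8.08 at day 21, and non-sprouting neurons of the same animals had nearly the same values. The difference was 0.75 in sprouting and 0.73 in non-sprouting neurons (limma adjusted p 0.557 and 0.541; exact permutation p 0.0556 each, of a smallest possible 0.00794). Replicates 1 and 5 of day 21 carried the highest values. In sprouting neurons the unadjusted call of Rest was lost without either of them or without day 7 replicate 1, 2 or 3 (limma unadjusted p 0.0591 to 0.0697). Its other passing probes gave 0.02 and 0.26 in sprouting neurons, and -0.03 and 0.24 in non-sprouting neurons, and within scan days the change in sprouting neurons was 1.22, 0.08 and 0.92.

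Hdac8 in non-sprouting neurons was at 8.18, 8.14, 8.12, 8.02 and 7.62, then 7.71, 7.67, 7.68, 7.79 and 7.46, a difference of -0.35 (limma adjusted p 0.533). Only day 7 replicate 5 reached into the day 21 range. Its other probe gave -0.01, and within scan days the change was -0.37, 0.06 and -0.56. Ep300 in non-sprouting neurons was at 10.40, 9.95, 10.19, 10.39 and 10.75, then 10.31, 9.80, 9.84, 9.94 and 9.41, overlapping but 1.39-fold lower at day 21 (limma adjusted p 0.535). Its other passing probe gave -0.03 and the mean of both -0.25. Its unadjusted call was lost without any of 5 animals (-0.46 to -0.36). Mbd2 in sprouting neurons was at 10.43, 10.26, 10.01, 10.35 and 10.58, then 9.70, 9.99, 9.91, 10.15 and 10.17, overlapping and 1.27-fold lower (limma adjusted p 0.557). The unadjusted call of Mbd2 was lost without day 7 replicate 1, 4 or 5 or day 21 replicate 1 or 3 (limma unadjusted p 0.0512 to 0.0731). Within the 3 scan days Ep300 gave -0.06, -0.92 and -0.98 in non-sprouting neurons. The summed signal of the oligodendrocyte markers in sprouting neurons ran from 36080 to 78460 at day 7 and from 13590 to 52000 at day 21, and its part in these levels was not tested.

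**Figure D4:**
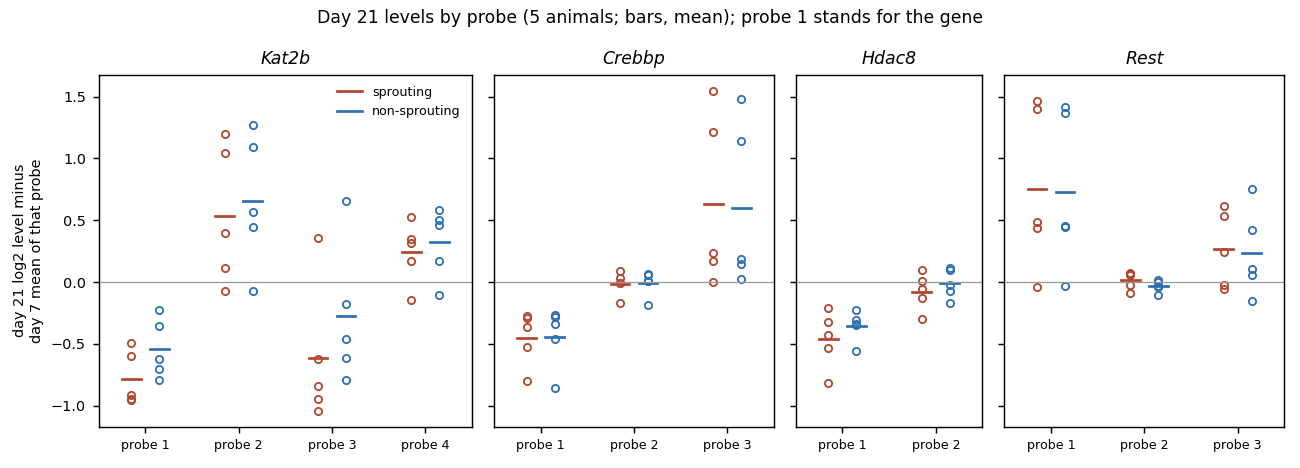
Day 21 log2 level minus the day 7 mean of the same probe for Kat2b, Crebbp, Hdac8 and Rest, in sprouting and non-sprouting neurons, with circles for animals and bars for means. Probe 1 stands for the gene in the text. For Kat2b and Crebbp some, but not all, of the other probes lie on the other side of 0.

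A list of 145 other chromatin regulators, of which 114 were measured, had 6 genes at an unadjusted p under 0.05 at day 7 (5.26%, beside 9.48% of all genes). It had 8 at day 21 (7.02%, beside 5.8%), 11 for the mean of both days (9.65%, beside 11%) and 5 for the difference between days (4.39%, beside 4.05%). For levels it had 15 in sprouting (13.2%, beside 8.82%) and 13 in non-sprouting neurons (11.4%, beside 8.96%), and 0 passed the adjusted threshold in any of the 6 comparisons. Tet2, an enzyme that oxidises methylated cytosine, was lower in sprouting neurons in all 5 animals of day 21 (-0.12 ± 0.05, SD, n = 5; limma adjusted p 0.84). Dot1l, the H3K79 methyltransferase, was lower in all 5 as well (-0.10). Kdm5b, a histone demethylase, was at -0.23 and -0.18 on the days. Ring1, a Polycomb ligase, was at 0.04 and 0.08, and Actl6b, a neuronal SWI/SNF subunit, at -0.09 at day 7. Sirt5, a mitochondrial deacylase, was lower in all 5 animals at day 7 (-0.12) and higher in 4 of 5 at day 21 (0.07), a difference of 0.18 (adjusted p 0.943). Trim28 and Kat8 had differences of -0.20 and 0.21.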

How the data were processed

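Intensities of 20 two-colour Agilent arrays from 10 rats were read as deposited, and per the file headers the scanner software was Agilent Feature Extraction 9.1.3.1. Mean signals were corrected with normexp (offset 50) and loess within arrays (limma 3.58.1, R 4.3.3). Ratios were turned for the dye swap, and an animal's value needed both of its arrays. Levels were further scaled with Aquantile. The brightest probe stood for a gene if above background on at least 0.5 of a group's arrays and measured in 3 animals a day; 82 member probes were found and 78 passed. Day means, their mean and difference, and levels between days were tested with lmFit and eBayes, with Benjamini-Hochberg adjustment over 33087 genes. Ratios of all 10 animals entered 1 fit with a mean per day, which shares the spread between animals over both cohorts. The authors' deposited normalized log2 ratios, whose method is not given in the sources used here, served as an alternative, and 20 further columns of that table were not used. On simulated ratios for the mean of both days (31819 genes), 91% of genes changed by 0.5 were recovered, and 7 unchanged genes were called. The changed genes were drawn from all genes, and no member's mean of both days exceeded 0.39. Members also spread more than all genes (median SD 0.163 beside 0.116 at day 7). The simulation therefore does not measure how often changes of the members' size would be found. RefSeq tables of GRCr8 gave names and promoters only. Members, lists and tests were chosen with earlier results of these data known. Named per animal were the 4 members with the smallest p in each comparison and 10 chosen members. The requirement of both arrays, as written in the design, replaced a looser rule whose results had been seen.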

Additional observations from a re-analysis of the deposited data

Results flagged for a closer look

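Among 132 groups of animals examined for the 22 members described in detail, 12 had a highest or lowest animal whose gap to the next exceeded the critical share of the range (Dixon's 95% value). Chance marks about 1 group in 20. For ratios, these were Cbx1 at day 21 (replicate 3 at 1.45, the others -0.04 to 0.26), Sin3a at day 21 (replicate 3 at 0.79, the others 0.03 to 0.15) and Chd3 at day 21 (replicate 2 at -0.03, the others 0.12 to 0.15). They also included Ep300 at day 7 (replicate 1 at 0.06, the others -0.39 to -0.27), Hdac2 at day 21 (replicate 2 at 0.41, the others -0.13 to -0.02) and Hdac9 at day 21 (replicate 5 at 0.14, the others -0.06 to -0.02).

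For levels they were Cbx1 in non-sprouting neurons at day 7 (replicate 3 at 9.26), Crebbp in sprouting neurons at day 7 (replicate 3 at 9.64) and Hdac8 in non-sprouting neurons at day 7 (replicate 5 at 7.62). Rcor1 in sprouting neurons at day 7 stood out in replicate 2 (7.07). Dnmt3a at day 21 stood out in replicate 4 in both cell types, at 7.08 in sprouting neurons (others 6.26 to 6.46) and 7.14 in non-sprouting neurons (others 6.35 to 6.51). That animal's arrays disagreed with each other for most members.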

How the results depend on the processing

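No member passed the adjusted threshold except with the 20 arrays fitted singly with animal as a random block (1 member at day 7, 2 for the mean) and with the arrays with sprouting neurons in Cy3 alone (1 for the mean, 1 in each level comparison). Counts at an unadjusted p under 0.05 were 8, 0, 9, 0, 5 and 5 for day 7, day 21, the mean, the difference, sprouting levels and non-sprouting levels. At day 7 they became 5 with median centring, 2 with the strict filter, 5 with probes averaged, 13 with single arrays and 5 with Cy5 arrays only. At day 21 they became 1 without background subtraction, with processed signals, deposited ratios or the scan day block, 2 with scaling, an intensity trend, array weights, separate fits or the replicate block, 3 with median centring, 4 with single arrays and 5 with Cy3 arrays only. For the mean they became 3 with the strict filter and 14 with Cy3 arrays only. For the difference they became 1 with processed signals, median centring, array weights or Cy5 arrays, 2 with Cy3 arrays and 3 with single arrays or the scan day block. In sprouting levels they became 2 with processed signals, median centring, probes averaged, array weights or the scan day block, 3 with the strict filter, 8 with the replicate block and 1 with Cy5 arrays. In non-sprouting levels they became 3 with the strict filter or scan day block, 2 with probes averaged and 10 with Cy3 arrays. The strict filter left 23 members. The share of all genes at that p shifted too: with Cy3 arrays only it was 26.2% for the mean, beside 31.8% of members, and 24.3% in non-sprouting levels, beside 22.7%. Over all these settings it ran from 5.15% to 19% at day 7, 4.35% to 14.7% at day 21, 8.34% to 26.2% for the mean, 3.18% to 6.16% for the difference, 2.41% to 24.2% in sprouting and 2.48% to 24.3% in non-sprouting levels. At day 7 the members' share was above that of all genes in 15 of 18 settings. It was below with the strict filter (8.7% of members beside 10.7% of all genes), Cy5 arrays only (11.4% beside 13.9%) and Cy3 arrays only (15.9% beside 19%). The cause of each shift was not tested.

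The members' median was 0.0902 with processed signals and 0.0125 with median centring at day 7, 0.0293 with processed signals at day 21, and 0.0656 and 0.0027 for the mean. For the difference it was -0.0005 with processed signals, 0.0321 with median centring and -0.0384 with array weights, and in non-sprouting levels -0.2081 with processed signals. With each animal left out, the counts ran from 4 to 12 at day 7, 0 to 2 at day 21, 4 to 10 for the mean, 0 to 3 for the difference, 2 to 8 in sprouting and 3 to 8 in non-sprouting levels. Some counts fell or rose by more than 1.5-fold from the full count. Day 7 fell without its replicates 2 (5) and 5 (4) or day 21 replicate 4 (5), and the mean fell without day 21 replicates 1 (5) and 3 (4). Sprouting levels fell without day 7 replicates 1 (2), 2 (3) and 4 (3) or day 21 replicate 5 (3), and rose without day 7 replicate 5 (8). Non-sprouting levels rose without day 21 replicate 1 (8) and fell without day 21 replicate 5 (3). The full counts at day 21 and for the difference were 0, so a rise there has no fold. The share of all genes ran from 7.74% to 12.4%, 3.31% to 6.55%, 8.48% to 13.2%, 3.5% to 5.98%, 5.53% to 17.8% and 5.77% to 18.9% in the same order. Without day 7 replicate 5, 18.2% of members and 17.8% of all genes were called in sprouting levels. For the day 7 ratio they were 9.09% and 8.67% without that animal. The members' day 7 share was above that of all genes with each of 10 animals left out. These are not 10 separate checks, since the fits share most animals. Leaving out a day 21 animal changes only the shared spread, not the day 7 means. The medians ran from 0.0295 to 0.0577, 0.0004 to 0.0172, 0.0139 to 0.0443, -0.0442 to -0.0076, -0.0825 to 0.0111 and -0.0405 to 0.0322.

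Averaging all probes turned the level change of Crebbp to 0.0575 in sprouting and 0.0492 in non-sprouting neurons, and that of Kat2b to 0.0412 in non-sprouting neurons. Of 902 values of named members over the alternatives, 764 kept their sign and their side of an unadjusted p of 0.05, 110 kept the sign but crossed that p, and 28 changed sign. These were the 3 above and 25 not called under either setting, all mean ratios of both days of Hdac2, Hdac9, Dnmt1, Crebbp, Cbx5, Smarca4 or Rest, at most 0.101 in size. Replicate numbers are shared between cohorts of different animals, and same-numbered animals correlated at -0.196 to 0.000989, so the replicate block pairs nothing; under it Ep300 at day 7 kept an unadjusted p of 0.0095. Accepting 1 array per animal, the rule run at first and kept as an alternative after the data were seen, gave 10 members for the mean and left the other 5 counts as they were. Dim probes such as that of Rest limit what can be seen.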
